A study of Mus musculus with 4 samples.

Results

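The metallothioneins *Mt1*, *Mt2* and *Mt3*, the glutathione S-transferases *Gstm1* and *Gstm5*, the peroxiredoxin *Prdx6*, the catalase gene *Cat*, the glutathione peroxidase *Gpx1*, the superoxide dismutase *Sod1* and *Nfe2l2*, which encodes the transcription factor NRF2, were followed in *Dnmt1* wild-type (WT) and *Dnmt1* knockout (KO) cells of the embryonic preoptic area (POA). These 10 genes were chosen by their symbols as genes of metal binding and redox defence, out of 55573 genes with a deposited count, with earlier results of these data known, so that comparisons with all genes are descriptions. *Mt1*, *Mt2* and *Mt3* rose in KO, as did *Gstm1*, *Prdx6* and *Nfe2l2*, and *Mt1* and *Mt2* showed the steepest differences of the 10. The KO levels of *Cat*, *Gpx1* and *Sod1* were 0.920 to 1.06 times the WT levels, and *Gstm5* lay slightly higher in KO, all without passing the test.

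RNA sequencing was performed on tdTomato-positive, DAPI-negative cells enriched by FACS from mouse embryos at embryonic day (E) 16, with the question of which genes change when DNMT1, the maintenance DNA methyltransferase, is missing. In both genotypes, on a C57BL/6J background, Cre recombinase was driven by *Hmx3*, a homeobox gene of postmitotic POA cells, and switched on the tdTomato reporter, so that WT cells carried Cre and reporter as well. KO embryos additionally carried loxP-flanked exons of *Dnmt1*, whose removal shifts the reading frame and leaves a null allele in cells of the *Hmx3* lineage. The labels name the tissue as basal telencephalon and the study as the POA. Cells were pooled from 12 WT and from 6 KO embryos, and 2 libraries were made per genotype. The labels call these biological replicates and the study's methods call them technical duplicates, so that SDs and p-values measure the spread between libraries, which may be technical.

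Metallothioneins are small, cysteine-rich proteins that bind zinc and copper and scavenge radicals. *Mt1* and *Mt2* are transcribed when the zinc sensor MTF1 binds metal response elements (MREs) in their promoters, whereas MT3 is known as the brain form. Catalase, glutathione peroxidases and peroxiredoxins remove peroxides, superoxide dismutases remove superoxide, and glutathione S-transferases couple electrophiles to glutathione. NRF2, held in check by KEAP1, activates many of these genes through antioxidant response elements (AREs). In the brain, metallothioneins, *Gstm1* and *Prdx6* are known to be abundant in astrocytes.

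The libraries held between 8075102 and 9995968 counts, so that a floor of 3 counts lay between 0.294 and 0.372 CPM, a unit that sets each count against the TMM-normalised size of its library. WT replicate 1 held more mitochondrial rRNA (8.66% of its counts) than the other libraries (1.51% to 2.32%). Replicates of a genotype differed beyond sampling noise (a chi-square of 57.2 per degree of freedom in WT and of 4.28 in KO), and none was treated as a repeat deposit. Each library was counted as a sample, although duplicates prepared from 1 pool may also differ in this way. The targeted gene *Dnmt1* had 3103 and 4557 counts in the WT libraries, against 2383 and 2552 in the KO pair, and its log2 fold change of -0.56 (standard error, SE, 0.14) missed the threshold in edgeR's quasi-likelihood test (adjusted p = 0.0511), whereas DESeq2 placed it under the threshold (-0.57, adjusted p = 0.00843). All p-values below come from the edgeR test, adjusted over the 16832 genes that passed the expression filter, and genes with an adjusted p under 0.05 are called changed. The filter asked for 1.13 CPM (before TMM scaling) in at least 2 libraries, and all 10 redox genes passed it. *Mt2* lay over this level in neither WT library and *Mt1* in 1 of them, so that both entered the test by way of their KO counts.

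Of the 10 genes, 6 were called higher in KO and 0 were called lower, and 0 had an unadjusted p under 0.05 in that direction, while DESeq2 likewise called 6 higher and 0 lower. The 6 include *Mt1* and *Mt2*, which were tested by way of their KO counts. Of the 8 genes that pass on their WT libraries alone, 4 were called higher, against 5.33% of the 14470 such genes in all. Without any filter, *Mt1* and *Mt2* were called higher too, in a fit that called 5.97% of 30006 genes higher. Among all genes tested, edgeR called 7.33% higher and 0.570% lower, together 7.90%, and DESeq2 called 7.40% higher and 1.47% lower. Both KO libraries lay above both WT libraries for 8 of the 10 genes, which was the case for 28.3% of all genes tested, and for 0 of the 10 genes did both lie below, against 25.2% of all genes. Their log2 fold changes had a median of 1.95, against -0.03 over all genes tested. Both this median and the 8 without overlap include *Mt1* and *Mt2*, which were tested by way of their KO counts. In bulk RNA, fewer cells of a type and less RNA per cell cannot be told apart, and this holds for every difference below.

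**Figure D1:**
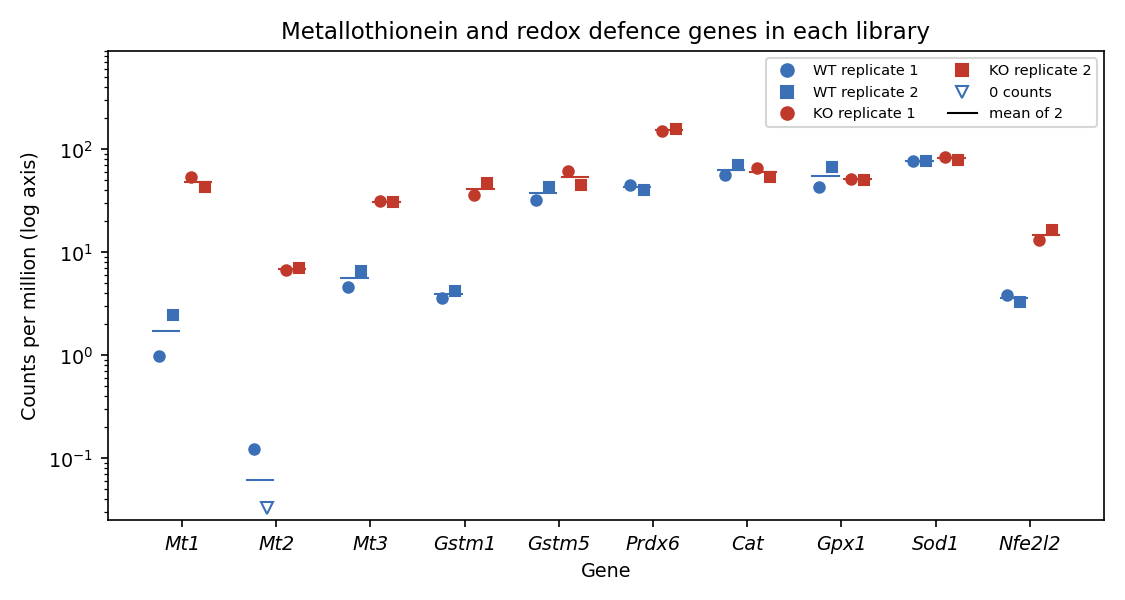
CPM (log axis) of the 10 genes in the 4 libraries, with WT in blue, KO in red and a short line for the mean of 2 libraries; the open triangle marks the 0 counts of *Mt2* in WT replicate 2. Red and blue points are far apart for *Mt1*, *Mt2*, *Mt3*, *Gstm1*, *Prdx6* and *Nfe2l2*, and lie together for *Cat*, *Gpx1* and *Sod1*.

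The metallothionein genes of the mouse form a cluster on the plus strand of chromosome 8, in the order *Mt4*, *Mt3*, *Mt2*, *Mt1*, with gaps of 13575, 18517 and 5513 bases between them. The 250 bases before the RefSeq start of the 3 metallothionein genes that were detected are shown here because these neighbours rose together and because MREs are the textbook element of such promoters. The sequences are from RefSeq on GRCm38.p6, plus strand, at chr8:94178839-94179088 for *Mt1*, chr8:94172368-94172617 for *Mt2* and chr8:94152357-94152606 for *Mt3*. Capitals mark matches to the MRE core, TGCACNC or TGCGCNC on either strand, and to the ARE core, TGACNNNGC on either strand.
Mt1: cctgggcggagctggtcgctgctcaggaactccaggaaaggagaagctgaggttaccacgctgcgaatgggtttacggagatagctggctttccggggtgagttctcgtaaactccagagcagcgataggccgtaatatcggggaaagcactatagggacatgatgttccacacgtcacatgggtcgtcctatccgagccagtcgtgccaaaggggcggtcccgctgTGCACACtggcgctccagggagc
Mt2: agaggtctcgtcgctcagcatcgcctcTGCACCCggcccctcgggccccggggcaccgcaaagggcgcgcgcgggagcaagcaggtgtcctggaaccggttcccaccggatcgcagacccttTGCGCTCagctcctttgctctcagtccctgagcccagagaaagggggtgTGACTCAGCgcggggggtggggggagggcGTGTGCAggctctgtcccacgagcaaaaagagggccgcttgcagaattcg
Mt3: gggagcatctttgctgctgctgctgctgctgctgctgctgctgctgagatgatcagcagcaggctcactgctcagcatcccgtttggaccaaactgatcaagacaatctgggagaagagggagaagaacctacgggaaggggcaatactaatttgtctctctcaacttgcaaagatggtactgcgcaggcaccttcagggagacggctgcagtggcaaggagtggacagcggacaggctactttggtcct

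The search covered 300 bases, from 250 before to 50 after each start, with positions counted from the start. *Mt1* held 3 MRE cores, of which 1 lies at -23 to -17 and the others follow the start, at 3 to 9 and 21 to 27. *Mt2* held 4, at -223 to -217, -128 to -122, -50 to -44 and 5 to 11, the last pair on the minus strand. Its single ARE core, at -79 to -71, overlaps a match to the AP-1 site TGANTCA at -79 to -73. *Mt3* held 1 MRE core, at 28 to 34, beyond the bases shown. *Mt4*, which had 0 counts in every library, held 1 as well, at -91 to -85. Of the other genes with a RefSeq window, *Gstm1* and *Gstm5* held 1 MRE core each, *Nfe2l2*, *Sod1* and *Gstm5* held 1 ARE core each, *Gstm5* also held an AP-1 match at -176 to -170, and *Cat* and *Gpx1* held none of these. Of 32851 such windows of all genes, 25.7% held at least 1 MRE core, 1.97% at least 3 and 0.517% at least 4. An ARE core was present in 12.4% and an AP-1 match in 7.81% of the windows. A match is a description of the letters and was not tested for binding. The *Mt1* window rests on 1 RefSeq start, and the merged exons of this gene span its whole locus, introns included. Bases more than 50 after that start, where another start could lie, were not searched.

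**Figure D2:**
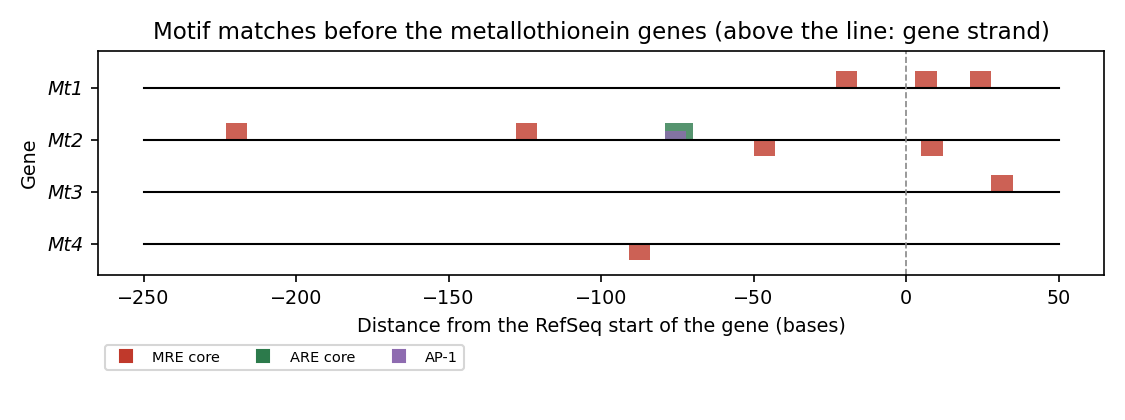
Positions of motif matches in bases from the RefSeq start (dashed line) of the 4 clustered metallothionein genes; boxes above a gene's line lie on its own strand and boxes below on the other strand. *Mt1* and *Mt2* hold 3 and 4 MRE cores, *Mt3* and *Mt4* 1 each, and the ARE core of *Mt2* carries the overlapping AP-1 match.

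*Mt1* (ENSMUSG00000031765, chr8:94179082-94180327) had 8 and 25 counts in the WT libraries, against 453 and 396 in the KO pair. This corresponds to 0.993 and 2.45 CPM in WT and to 53.9 and 43.6 CPM in KO. Both KO libraries lay far above both WT libraries. The mean level was 1.72 ± 1.03 CPM in WT and rose to 48.7 ± 7.24 CPM in KO (SD, n = 2 each). The log2 fold change amounted to 4.76 (SE 0.34, adjusted p = 7.63e-05 in edgeR). On the linear scale this was 27.1-fold, with a 95% interval from 15.8 to 46.7. The log2 value was 4.30 without WT replicate 1 and 5.58 without WT replicate 2. As *Mt1* was tested by way of its KO counts, its call is no independent test of the difference.

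*Mt2* (ENSMUSG00000031762, chr8:94172664-94173568) was all but undetected in WT, with 1 count in replicate 1 and 0 counts in replicate 2, and had 57 and 64 counts in KO. In CPM the values were 0.124 and 0 in WT and 6.78 and 7.05 in KO. The groups did not overlap. As *Mt2* was tested because of its KO counts, its call (adjusted p = 0.00114 in edgeR) is no independent test of the difference. Because a fold change against 1 count depends on the prior count of the fit, the ratio of the summed counts is given instead. Scaled by library size it was 126, with an exact counting interval from 22.2 to 5031, and such intervals cover counting error only. *Mt2* shares 73.5% of its exonic bases with *Gm45774* on the opposite strand, which had 0 and 6 counts in the WT libraries, against 6 and 16 in the KO pair. The strand setting of the counting is not given in the sources used here, so that reads of this pair may not be told apart.

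*Mt3* (ENSMUSG00000031760, chr8:94152607-94154146) was the best detected metallothionein in WT, at 37 and 68 counts, and reached 266 and 279 counts in KO. Its CPM were 4.59 and 6.66 in WT and 31.6 and 30.7 in KO, again without overlap. The log2 fold change was 2.45 (SE 0.25, adjusted p = 0.000594 in edgeR), or 5.48-fold with a 95% interval from 3.67 to 8.18. The *Mt1* interval, from 15.8 to 46.7, lies wholly above that of *Mt3*, but *Mt1* was tested by way of its KO counts. Ranking these intervals is therefore no independent test. The ratio of *Mt1* to *Mt3* counts within a library, which needs no normalisation, was 0.216 and 0.368 in WT and 1.70 and 1.42 in KO. Per kilobase of exon, too, *Mt1* lay below *Mt3* in both WT libraries and above it in both KO libraries. The merged exons of *Mt1* include its introns, which lowers its level per kilobase. With 2 libraries against 2, an exact permutation test of such a ratio cannot give a two-sided p below 0.333.

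Of the glutathione S-transferases, *Gstm1* (ENSMUSG00000058135, chr3:108012255-108017973, minus strand) had 29 and 43 counts in the WT libraries, against 305 and 427 in the KO pair. The CPM were 3.60 and 4.21 in WT and 36.3 and 47.0 in KO. The KO libraries lay clear of the WT libraries, and the log2 fold change of 3.40 (SE 0.25, adjusted p = 7.85e-05 in edgeR) equals 10.6-fold with a 95% interval from 7.15 to 15.7. Of all 50-base stretches of *Gstm1* transcripts, 18.9% also occur in other genes, mainly the pseudogene *Gstm2-ps1* and *Gstm3*. *Gstm2-ps1*, *Gstm2* and *Gstm3* had 0 counts in every library.

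*Gstm5* (ENSMUSG00000004032, chr3:107895821-107898686) had 260 and 444 counts in the WT libraries, against 521 and 410 in the KO pair. At 32.3 and 43.5 CPM in WT and 61.9 and 45.2 CPM in KO, the KO libraries lay above the WT libraries by a margin smaller than the spread within either genotype. The log2 fold change was 0.49 (SE 0.22, adjusted p = 0.223 in edgeR), with an interval of the fold from 0.998 to 1.99. With a library left out, the log2 value ran from 0.26 without KO replicate 1 to 0.72 without WT replicate 2. The antisense gene *4933431E20Rik*, which overlaps 13.9% of the exonic bases of *Gstm5*, had 127 and 146 counts in the WT libraries, against 341 and 397 in the KO pair. The ratio of *Gstm1* to *Gstm5* counts was 0.112 and 0.0968 in WT and 0.585 and 1.04 in KO.

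Of the other genes of the *Gstm* subfamily, *Gstm4* (38 and 51 counts in WT, 53 and 69 in KO) had a log2 fold change of 0.52 with an adjusted p of 0.38 in edgeR. *Gstm6* had one of -0.23 (adjusted p = 0.731) and *Gstm7*, with the most counts of these, one of -0.46 (adjusted p = 0.183). Of all 23 glutathione S-transferases listed, 13 passed the filter. Of these, 1 was called higher (7.33% of all genes tested) and 0 were called lower (0.570% of all), and that 1 was *Gstm1*. The 11 tested without *Gstm1* and *Gstm5* showed a median log2 difference of -0.09. The smallest p among them belonged to the mitochondrial and peroxisomal *Gstk1*, with 17 counts in each WT library and 46 and 55 in KO (log2 fold change 1.61, SE 0.41, adjusted p = 0.0511 in edgeR).

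*Prdx6* (ENSMUSG00000026701, chr1:161240112-161251219, minus strand), a peroxiredoxin that uses glutathione and also acts as a phospholipase, was the best detected of the 10 genes in KO. It had 366 and 415 counts in the WT libraries, against 1275 and 1448 in the KO pair. With 45.4 and 40.7 CPM in WT and 152 and 159 CPM in KO, the replicates were close and the genotypes far apart. The log2 fold change was 1.85 (SE 0.15, adjusted p = 0.000165 in edgeR), or 3.62-fold with a 95% interval from 2.84 to 4.60.

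None of the other peroxiredoxins was called. The log2 fold changes were 0.09 for *Prdx1*, -0.38 for *Prdx2*, -0.22 for *Prdx3*, 0.05 for *Prdx4* and -0.10 for *Prdx5*, with adjusted edgeR p-values from 0.22 to 0.932. The ratio of *Prdx6* to *Prdx1* counts was 1.55 and 1.38 in WT and 4.92 and 5.01 in KO. Of 16 genes of the peroxiredoxin and thioredoxin system, all tested, *Prdx6* was the 1 called higher (7.33% of all genes), and 0 were called lower (0.570%). The 15 others showed a median log2 difference of -0.00, and *Txnrd1*, the cytosolic thioredoxin reductase, had the smallest p among them (-0.36, adjusted p = 0.169 in edgeR).

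*Cat* (ENSMUSG00000027187, chr2:103453849-103485160, minus strand) had 453 and 717 counts in the WT libraries, against 556 and 486 in the KO pair. At 56.2 and 70.3 CPM against 66.1 and 53.5 CPM, the genotypes overlapped (log2 fold change -0.08, SE 0.18, adjusted p = 0.828 in edgeR). The 95% interval of the fold, from 0.710 to 1.26, leaves room for changes of that size. The sign of this difference turned without WT replicate 2 (0.08), without KO replicate 2 (0.07) and with library size alone (0.02).

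*Gpx1* (ENSMUSG00000063856, chr9:108338903-108340343) had 351 and 685 counts in the WT libraries, against 430 and 463 in the KO pair. Its CPM were 43.6 and 67.1 in WT, on either side of 51.1 and 51.0 in KO. The log2 fold change was -0.12 (SE 0.21, adjusted p = 0.783 in edgeR), the interval of the fold ran from 0.657 to 1.29, and without WT replicate 2 the log2 value was 0.22 (adjusted p = 0.417).

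*Sod1* (ENSMUSG00000022982, chr16:90220754-90226329) had 622 and 781 counts in the WT libraries, against 717 and 711 in the KO pair. The CPM were 77.2 and 76.5 in WT and 85.2 and 78.3 in KO, so that KO lay just above WT. Its log2 fold change of 0.09 (SE 0.14) did not pass the test (adjusted p = 0.759 in edgeR), with an interval of the fold from 0.847 to 1.34.

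Among the 10 catalase, glutathione peroxidase and superoxide dismutase genes, 1 was called higher (7.33% of all genes tested) and 0 lower (0.570%). Their median log2 fold change was 0.04. The called gene was *Sod3*, the extracellular superoxide dismutase, with 0 and 3 counts in the WT libraries, against 35 and 66 in the KO pair (adjusted p = 0.00712 in edgeR). Like *Mt2*, it passed the filter by its KO libraries alone, so that this call is no independent test. The ratio of its summed counts was 35.2, with an exact counting interval from 11.7 to 173. The mitochondrial *Sod2* (611 and 699 counts in WT, 489 and 494 in KO) had a log2 fold change of -0.36 and an adjusted p of 0.198 in edgeR. *Gpx4*, which reduces lipid peroxides, had one of -0.09 (adjusted p = 0.884).

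**Figure D3:**
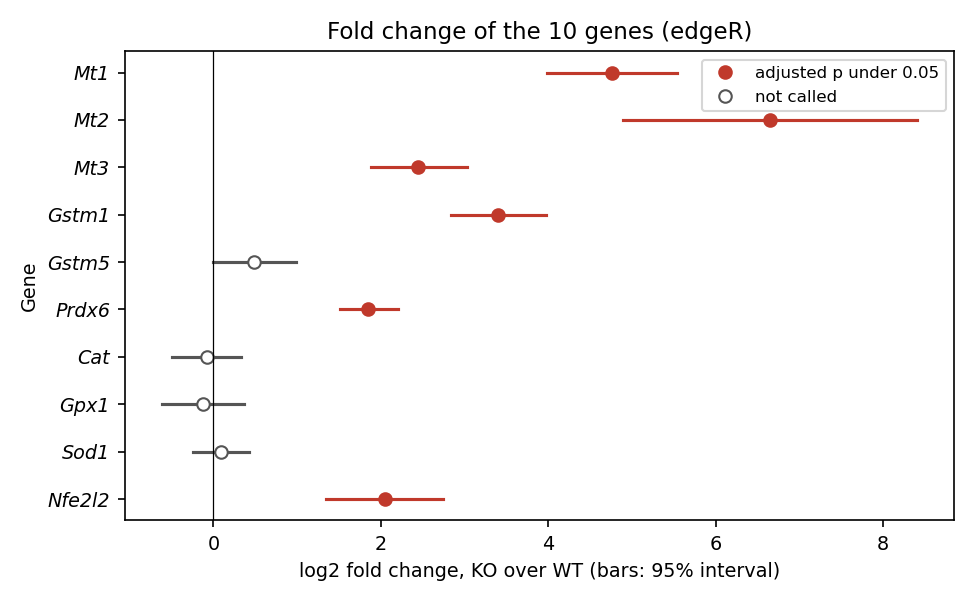
Log2 fold change (KO over WT) of the 10 genes with the 95% interval of the edgeR fit as bars, filled where the adjusted p was under 0.05. The 6 called genes lie between 1.85 for *Prdx6* and 6.65 for *Mt2*, whose fitted value depends on the prior count, and the intervals of *Gstm5*, *Cat*, *Gpx1* and *Sod1* include 0.

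*Nfe2l2* (ENSMUSG00000015839, chr2:75675513-75704641, minus strand) had 31 and 34 counts in the WT libraries, against 110 and 150 in the KO pair. The CPM were 3.85 and 3.33 in WT and 13.1 and 16.5 in KO, without overlap. The log2 fold change was 2.05 (SE 0.30, adjusted p = 0.00425 in edgeR), or 4.13-fold with a 95% interval from 2.55 to 6.67. *Keap1*, the adaptor that marks NRF2 for degradation, had 322 and 428 counts in the WT libraries, against 362 and 354 in the KO pair (log2 fold change 0.00, SE 0.16, adjusted p = 0.998 in edgeR). The ratio of *Nfe2l2* to *Keap1* counts was accordingly 0.0963 and 0.0794 in WT and 0.304 and 0.424 in KO.

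Of 28 genes listed for NRF2, its regulators and known targets, 27 were tested. Of these, 2 were called higher (7.33% of all genes tested) and 0 lower (0.570% of all), and the median log2 fold change was -0.03. Besides *Nfe2l2* itself, the called gene was *Slc7a11*, which encodes the cystine-glutamate exchanger that supplies cysteine for glutathione. *Slc7a11* had 14 and 15 counts in the WT libraries, against 574 and 464 in the KO pair, a log2 fold change of 5.22 (SE 0.27, adjusted p = 1.44e-05 in edgeR). The other 25 genes tested in this list were not called. For 5 known targets among them, chosen after their values were seen, the log2 fold changes were 2.30 for *Nqo1* at 6 and 1 counts in the WT libraries, against 18 and 17 in the KO pair (adjusted p = 0.146), 0.49 for *Hmox1* (0.488), -0.28 for *Gclc* (0.35), -0.02 for *Gclm* (0.964) and 0.39 for *Srxn1* (0.453), with the adjusted edgeR p-values in parentheses. *Gss*, the glutathione synthetase, stood at 1.05 (adjusted p = 0.0662) and the ferritin light chain *Ftl1* at -1.05 (adjusted p = 0.0892), and these were the values nearest the threshold in either direction.

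The list for metallothioneins and zinc handling held 19 genes, of which 16 were tested. Of these, 5 were called higher (7.33% of all genes tested) and 0 lower (0.570%), with a median log2 fold change of 0.12. Without *Mt1*, *Mt2* and *Mt3*, 2 of 13 were called and the median was 0.01. *Slc39a12*, a zinc importer, had 0 and 9 counts in the WT libraries, against 626 and 571 in the KO pair (log2 fold change 7.09, SE 0.49, adjusted p = 6.49e-05 in edgeR), and it too passed the filter by its KO libraries alone. The other called gene was *Slc30a10*, a manganese and zinc exporter, with 126 and 138 counts in the WT libraries, against 307 and 241 in the KO pair (1.11, SE 0.23, adjusted p = 0.0207 in edgeR). *Mtf1*, which encodes the zinc sensor, had 224 and 292 counts in the WT libraries, against 224 and 330 in the KO pair (0.16, SE 0.20, adjusted p = 0.684 in edgeR). *Slc30a1*, a zinc exporter and textbook MTF1 target, had 202 and 207 counts in the WT libraries, against 149 and 144 in the KO pair, with a log2 fold change of -0.43 that was not called (adjusted p = 0.276 in edgeR).

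Across the 5 lists, 94 genes were named and 80 tested, of which 10 were called higher and 0 lower. Apart from the 10 genes described above, 4 of 70 were called higher, near the 7.33% of all genes, and the median of these 70 was -0.02. Of the 66 that pass the filter on their WT libraries alone, 2 were called higher, *Slc30a10* and *Slc7a11*, or 3.03% against 5.33% of all such genes. At an unadjusted p under 0.05, 10 of the 70 lay higher and 9 lower, where 14.6% and 8.01% of all genes tested did, with at most 3 lower in any list, and DESeq2 called 0 lower in each of the 5 lists. Of the genes of the 5 lists, the number called lower was 10 without WT replicate 1, where 7.15% of all genes were called lower, and 7 without WT replicate 2, where 12.0% were, and it also moved under other settings with all 4 libraries.

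**Figure D4:**
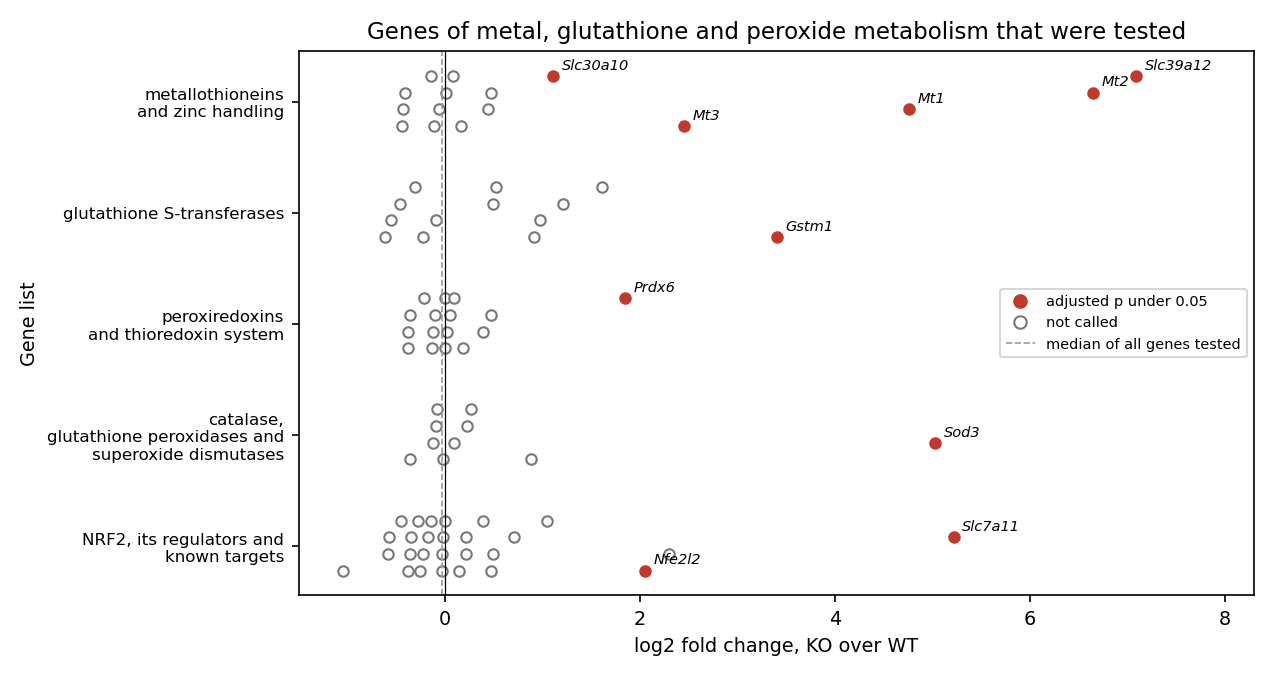
Log2 fold change (KO over WT) of each tested gene of the 5 lists, 1 point per gene in each list that holds it, with called genes filled and named and the median of all genes tested (-0.03) as a dashed line. The 10 called genes run from 1.11 for *Slc30a10* to 7.09 for *Slc39a12*, and *Nqo1* (2.30), *Gstk1* (1.61) and *Gsta4* (1.21), which were not called, also lie above *Slc30a10*.

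To compare levels between genes, CPM were divided by the length of the merged exons in kilobases (RPKM). In WT, *Gpx1* led with 38.4 ± 11.6 RPKM (SD, n = 2), followed by *Gstm5* (29.6), *Cat* (24.2), *Sod1* (19.4), *Prdx6* (8.96), *Mt3* (5.28), *Gstm1* (2.65), *Mt1* (1.38), *Nfe2l2* (0.946) and *Mt2* (0.106). Neighbours whose 2 libraries overlapped were *Gpx1* with *Gstm5*, *Gstm5* with *Cat*, and *Mt1* with *Nfe2l2*. In KO the order was *Gstm5* (41.9), *Mt1* (39.1), *Gpx1* (35.4), *Prdx6* (32.4), *Mt3* (29.2), *Gstm1* (28.3), *Cat* (22.9), *Sod1* (20.6), *Mt2* (11.8) and *Nfe2l2* (3.90). Here *Mt1* overlapped with *Gstm5* and *Gpx1*, *Gstm1* with *Mt3* and *Cat*, and *Cat* with *Sod1*. *Mt1* hence moved from place 8 to place 2. The merged exons of *Mt1* and of *Gpx1* span the whole locus, introns included, which lowers the RPKM of both.

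Genes with a pattern most like *Mt1*, which had the smallest p of the 10 genes but was tested by way of its KO counts, were sought among 12331 genes by the root-mean-square difference of centred log2 CPM over the 4 libraries. Among the nearest were *AI464131* (0.309) and *Prex2* (0.339). *AI464131* had 28 and 50 counts in the WT libraries, against 988 and 1039 in the KO pair. As 4 libraries of 2 genotypes were compared, this likeness is a description.

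Astrocyte markers also rose in KO, whereas *Gstm5*, *Cat*, *Gpx1* and *Sod1* were not called. All 12 astrocyte markers were called higher in KO, against 7.33% of all genes tested. Their summed level was 293 and 279 CPM in the WT libraries and 4144 and 3973 CPM in the KO libraries, 14.2-fold higher in the mean. *Gfap*, *Aqp4* and *Gjb6* passed the filter by way of KO, and of the 9 markers that pass on their WT libraries alone 9 were called higher. The defining marker *Gfap* was at 0 in WT and at 149 and 198 counts in KO. The most abundant one, the glutamate transporter gene *Slc1a2*, had 913 and 914 counts in the WT libraries, against 17041 and 16980 in the KO pair. The fold of *Mt1*, which was tested by way of its KO counts, was 27.1 and lay above that of the summed astrocyte markers. The folds of *Gstm1* (10.6), *Mt3* (5.48), *Nfe2l2* (4.13) and *Prdx6* (3.62) lay below that of the sum.

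Of the oligodendrocyte markers, 9 of 11 were called higher, with sums of 151 and 168 CPM in WT and 664 and 634 CPM in KO, and *Opalin* had 0 counts in WT. Only 6 of the 11 pass the filter on their WT libraries alone, of which 4 were called. Of the mural cell markers, 7 of 8 were called higher, with sums of 315 and 335 CPM against 737 and 801 CPM, and *Acta2* had 0 counts in WT, with 6 called of the 7 that pass on WT alone. For microglia 2 of 8 tested markers were called higher (34.9 and 44.2 against 78.1 and 78.4 CPM), and for endothelial cells 1 of 6 (29.7 and 33.4 against 60.8 and 65.2 CPM). The called endothelial marker was *Slc2a1*, and without it the sums were 17.5 and 16.4 CPM in WT and 16.3 and 18.6 CPM in KO. The erythroid sum was 31.0 and 44.7 CPM in WT and 18.9 and 19.2 in KO, and that of the choroid plexus 47.4 and 62.8 against 6.30 and 8.81, with 1 marker called lower in each, *Hbb-bs* and *Ttr*. Without *Ttr* the choroid plexus sums were 6.58 and 7.54 CPM in WT and 5.35 and 7.71 CPM in KO.

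The labelled cell type was present in both genotypes. Neuronal markers summed to 7988 and 7344 CPM in WT and 5569 and 5574 CPM in KO, with 3 of 12 called lower (*Syt1*, *Stmn2* and *Elavl4*) and 0 higher. At an unadjusted p under 0.05, 9 of the 12 lay lower, DESeq2 called 5 lower, and 11 were lower in each KO library than in either WT library. Markers of GABAergic interneurons summed to 1468 and 1331 CPM against 1144 and 1247 CPM, with 0 of 9 called by edgeR, and those of the *Hmx3* lineage to 974 and 911 against 773 and 845 CPM, with 0 of 5 called. Of the last 2 lists, 2 and 1 genes lay lower at an unadjusted p under 0.05, against 8.01% of all genes. In the other direction 0 lay higher, against 14.6% of all genes, and DESeq2 called 0 in either list. *Hmx3* itself had 633 and 919 counts in the WT libraries, against 604 and 851 in the KO pair. Of 11 genes induced by tissue dissociation, the heat shock genes *Hspa1a* and *Hspa1b* were called higher, both tested by way of their KO counts, and *Fos* and *Fosb* lower, with sums of 298 and 314 CPM in WT and 231 and 274 CPM in KO. The part of any of these markers in the differences of the metallothionein and redox genes was not tested.

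**Figure D5:**
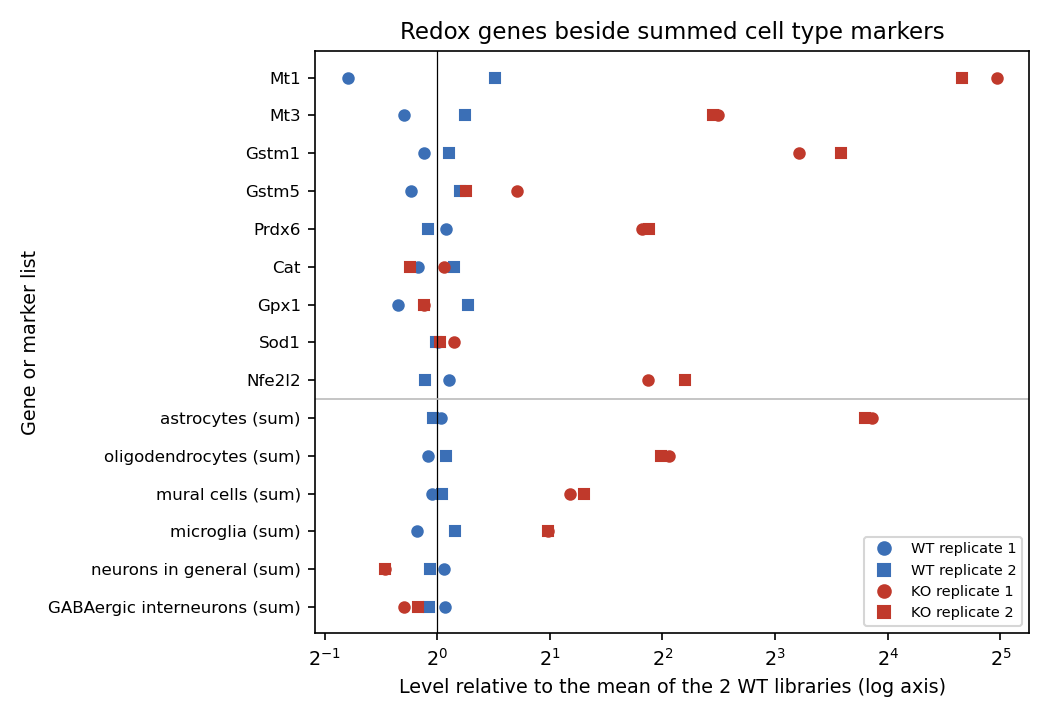
Level of each gene and of the summed CPM of each marker list in every library, relative to the mean of the 2 WT libraries (log axis of base 2). *Mt2* is left out because of its 1 count in WT; the astrocyte sum lies 14.2-fold above WT in KO, in the range spanned by *Mt1* and *Prdx6*, and the neuronal sum lies below WT.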

How the data were processed

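RNA was sequenced from 2 WT and 2 KO libraries, grouped by their sample labels. The authors deposited raw counts per Ensembl gene, without normalisation. Their processing notes name CASAVA 1.8.2, STAR 2.5.2a, featureCounts 1.5.0-p1 and the mouse build mm10 (GRCm38). The roles of these tools, the annotation release, the strand setting and the handling of reads with several matches are not given in the sources used here. Where reads of overlapping or near-identical genes were counted for both or discarded, the counts of *Mt2*, *Gstm1* and *Gstm5* would be affected.

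Gene symbols, positions and merged exon lengths were taken from GENCODE M21 (GRCm38), which matched 55480 of 55573 identifiers. Promoter sequences were taken from RefSeq (GRCm38.p6), which matched 9 of the 10 genes and not *Prdx6*. The expression filter of edgeR retained 16832 genes, which were scaled by TMM and compared with edgeR's quasi-likelihood test with genotype as the single term (edgeR 4.0.16, limma 3.58.1, R 4.3.3). Adjusted p-values are Benjamini-Hochberg values over all genes tested, and log2 fold changes are KO over WT. Standard errors were derived from the test statistic and 95% intervals from its degrees of freedom. Where a WT sum was at most 3 counts, the ratio of summed counts with an exact conditional interval was used. The procedure was tested on simulated data.

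The 10 genes, the lists of related genes and the marker lists were chosen with earlier results of these data known. Besides the 10 genes, the text names each called gene of the lists, the gene with the smallest p where no gene outside the 10 was called, *Mt4*, *Mtf1*, *Keap1*, *Prdx1* to *Prdx5*, *Gpx4*, *Sod2* and the *Gstm* genes, *Dnmt1*, defining markers, and the 3 genes most like *Mt1* with at least 10 counts in every library, of which 1 is not reported here. *Slc30a1*, the NRF2 targets and *Ftl1* that were not called, and the overlapping genes, were added after their values were seen. Alternatives were DESeq2 1.42.0, its size factors, library size alone, no filter, a minimum of 10 counts per library, a replicate block, offsets for gene length and GC content, these with the block, omission of each library, and removal of mitochondrial and rRNA genes.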

Additional observations from a re-analysis of the deposited data

How the results depend on the processing

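*Mt3*, *Gstm1*, *Prdx6* and *Nfe2l2* remained called higher in KO under every alternative, with log2 fold changes of 2.22 to 2.75, 3.21 to 3.59, 1.76 to 1.97 and 1.87 to 2.21. *Mt1* (4.30 to 5.58) and *Mt2* were called wherever they were tested, but by way of their KO counts, which is no sign of stability. The fitted value of *Mt2* ran from 5.63 without WT replicate 2 to 9.00 without WT replicate 1, which leaves 0 counts in WT, and depends on the prior count. The share of all genes called higher was 5.08% to 14.2% across these alternatives. A minimum of 10 counts in every library left *Mt1* and *Mt2* untested. Where a library was left out, the lone library of its genotype was assumed to vary like the others.

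*Cat* reversed its sign with library size alone (0.02) and without WT replicate 2 (0.08) or KO replicate 2 (0.07; -0.24 to 0.08 over the libraries left out), as did *Gpx1* without WT replicate 2 (-0.40 to 0.22 over the libraries left out), and none of these values was called. *Gstm5* was called without WT replicate 2 (0.72). Over the libraries left out, the value of *Gstm5* ran from 0.26 to 0.72. The cause of these changes was not tested.

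Over all genes, the number called higher (1233) was 1859 with the length and GC correction, 1964 with that and the replicate block, and 900 to 2578 with a library left out. The number called lower (96) was 247 with DESeq2, 573 with no filter, 52 with at least 10 counts in every library, 619 with the replicate block, 968 with the correction, 1164 with both, and 51 to 2180 with a library left out. The share of higher among all calls was 92.8%, 83.5% with DESeq2, 75.8% with no filter, 72.4% with the block, 65.8% with the correction, 62.8% with both, 66.5% without WT replicate 1 and 48.2% without WT replicate 2. Library size alone moved the median log2 fold change of all genes to 0.08 from -0.03.

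Of the redox pathway genes, 0 were called lower, against 2 with no filter, 2 with the replicate block, 6 with the correction, 7 with both, and 0 to 10 with a library left out. In the first 4 of these fits 1.91%, 3.68%, 5.75% and 6.92% of all genes were called lower. *Dnmt1* passed the threshold with DESeq2 (-0.57), DESeq2's size factors (-0.57), no filter (-0.55), the replicate block (-0.56), the correction (-0.68), both (-0.68), without mitochondrial and rRNA genes (-0.56), and without either WT library, with values of -0.67 to -0.46 over the libraries left out.

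Libraries with the same number share only that label, their deviations correlated with 0.137 across genes, and the block changed no call among the 10 genes. At 3 counts, or 0.294 to 0.372 CPM, depth limits what can be said of *Mt2* and *Sod3* in WT.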
